A study of Mus musculus with 30 samples.

Results

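The oxygen-induced retinopathy (OIR) arm that received saline in the eye on postnatal day 5 (P5) was compared here with healthy retina. The comparison took the 3 arrays titled as OIR pups with saline at P5 and the 3 arrays titled as untreated normoxia, 6 of the 30 arrays of the study, over all 12393 genes measured. The P5 saline pups were put into 75% oxygen at P7 with their nursing dams for 5 days, after the injection, which was into the vitreous. The normoxia pups had neither oxygen nor injection. Untreated OIR pups (3 arrays) had the same oxygen and no injection, and their values stand beside the comparison where an OIR change is at issue. The other 7 groups were OIR pups given saline at P12, or given CD34+ cells, endothelial colony forming cells or both at P5 or P12. Each array came from 1 retina of 1 pup, and the labels give neither strain nor sex. No array of a normoxia pup injected with saline was analysed here.

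All sample labels state P17. The protocols name both P12 and P17 as collection days, however, and the study design pairs injection at P5 with collection at P12. The P5 saline retinas could therefore be 5 days younger than the normoxia and the untreated OIR retinas. Oxygen, injection and a possible difference in age cannot be told apart in the comparison with normoxia. In that with untreated OIR, injection cannot be told apart from a possible difference in age and in time since the oxygen. The array reads RNA of the whole retina, so fewer cells of a type and less RNA per cell cannot be told apart either. Where 3 values of a group are given, they are the log2 signals of replicates 1, 2 and 3, and a value in brackets after the name of an array is the log2 difference from normoxia without that array.

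In the OIR model, newborn mice breathe high oxygen while their retinal vessels are still growing. Capillaries in the centre of the retina are lost, and after return to room air the poorly perfused tissue turns hypoxic. Hypoxia-inducible factors (HIF) then raise VEGF and other signals, and endothelial tip cells sprout, partly into the vitreous. In the same weeks the retina matures: progenitor genes are shut off, rods extend outer segments and fill them with phototransduction proteins, synapses form, and Müller glia take on their water, potassium and glutamate handling. Lens, pigment epithelium and cornea lie next to the neural retina and express genes at very high levels that the neural retina hardly uses.

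The labelled tissue was present in all 9 arrays of the normoxia, P5 saline and untreated OIR groups. The rod genes Sag (arrestin) and Rcvrn (recoverin) read 14.25 to 14.38 and 13.77 to 13.92 on the log2 scale in the P5 saline arrays. The median gene lay between 8.33 and 8.75 over the 30 arrays. Hybridisation controls, which are spiked in and carry no retinal signal, read 12.72, 11.92 and 12.03 in P5 saline replicates 1, 2 and 3, against 12.63, 12.58 and 12.79 in normoxia. The 3′ minus 5′ signal of the Actb control, a measure of RNA integrity, was -0.35 to -0.22 in P5 saline and -0.30 to -0.07 in normoxia.

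Lens genes set the P5 saline arrays apart. The mean log2 level of the 20 measured lens genes was 12.77, 12.22 and 9.95 in P5 saline, against 8.34, 6.31 and 6.82 in normoxia and 6.30, 6.12 and 7.06 in untreated OIR. All 3 P5 saline arrays lay above all 3 normoxia arrays, and normoxia replicate 1 was itself raised. No P5 saline array was free of it. The differences from normoxia below were therefore also fitted with this lens mean as a covariate, and the calls that this ended are named. Differences of single genes and lists from untreated OIR had no such fit, nor one without single arrays. The slope on the lens mean was estimated within groups over all arrays of the study. Pups given CD34+ cells at P5 spread widely, with lens means of 7.31, 13.16 and 13.02 in replicates 1, 2 and 3. Their replicate 1 also had the highest microglial list mean of that group, 9.97 against 8.38 in the next. The slope may therefore carry the state of that retina. A call gained or ended with the covariate cannot be ascribed to lens RNA alone.

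**Figure D1:**
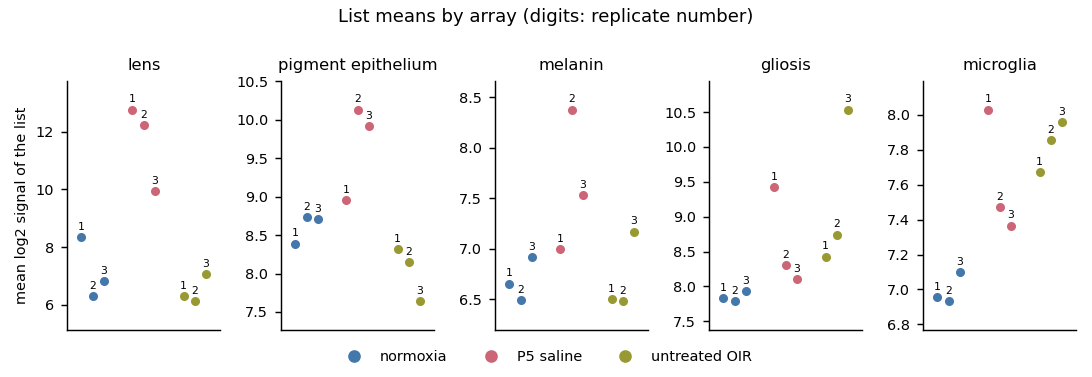
Mean log2 signal of the lens, pigment epithelium, melanin, gliosis and microglia lists (y axes) in each of the 3 normoxia, 3 P5 saline and 3 untreated OIR arrays (points, with replicate numbers). The lens mean of the P5 saline arrays runs from 9.95 to 12.77 and lies above every normoxia array, and P5 saline replicate 1 is the highest of its group for lens, gliosis and microglia while replicate 2 is the highest for pigment epithelium and melanin.

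Of the 12393 genes, 1004 (8.1%) differed between P5 saline and normoxia at a Benjamini-Hochberg adjusted p below 0.05 in limma, 484 higher (3.91%) and 520 lower (4.2%). The differences were mostly small: 61 of the higher and 9 of the lower genes differed by at least 2-fold. The median log2 difference over all genes was 0.02. Passing or not, 1668 higher and 1303 lower genes of the 12393 had arrays of the 2 groups that did not overlap. Separate arrays are therefore common and say little for a single gene. In the same model P5 saline differed from untreated OIR in 1077 genes (8.69%), 472 higher (3.81%) and 605 lower (4.88%). Untreated OIR differed from normoxia in 565 genes (4.56%), 445 higher (3.59%) and 120 lower (0.968%). These comparisons share arrays, so their gene lists were not set against each other, and values are given side by side instead.

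The calls rest on a spread estimated from all 10 groups. Fitted on the 6 arrays alone, 4 genes passed, namely Crygd, Cryga, Crygb and Rrm2, although 1859 genes had an unadjusted p below 0.05 there, among them 938 of the 1004. With each array centred on its median, 398 genes were higher and 908 lower, and with quantile normalization 539 and 783, so the balance of higher and lower calls depends on the scaling. With the lens covariate 687 genes passed, 431 higher and 256 lower. Between P5 saline and untreated OIR 172 genes passed with it, 88 higher and 84 lower. Which of the differences from untreated OIR given below would keep a call with it was not tested. Every verb of change below refers to the fit over 30 arrays.

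**Figure D2:**
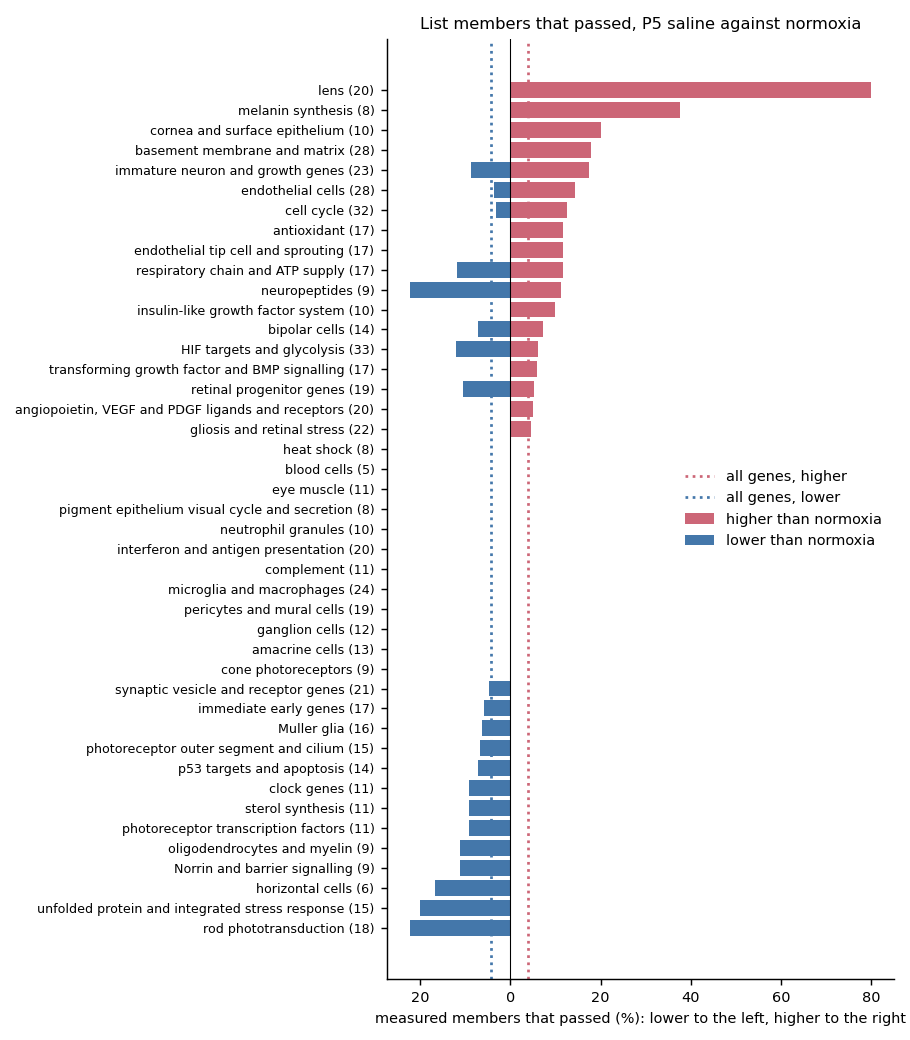
Share of the measured members of each gene list (percent, x axis) that was higher (right) or lower (left) in P5 saline than in normoxia at an adjusted p below 0.05, with the number of measured members in brackets. Dotted lines mark the shares over all genes, 3.91% higher and 4.2% lower; lens genes lead on the right, with 16 of 20 members higher, and rod phototransduction (4 of 18) and neuropeptides (2 of 9) have the largest shares lower.

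The genes that mark sprouting and hypoxic vessels in OIR were far lower in P5 saline than in untreated OIR, and most did not pass against normoxia. Esm1, which endothelial tip cells secrete, read 3.34, 3.80 and 4.18 in the normoxia arrays, 4.80, 4.58 and 3.46 in P5 saline and 7.79, 7.97 and 8.78 in untreated OIR. The P5 saline and normoxia values overlapped, and both groups lay far below untreated OIR. The difference of P5 saline from normoxia was 0.51 ± 0.48 (SE; adjusted p = 0.581), and that from untreated OIR -3.90 ± 0.48 (adjusted p = 9.94e-05). Apln, the apelin ligand made by tip cells, read 6.53, 6.60 and 6.57 in normoxia, 6.72, 7.31 and 7.34 in P5 saline and 9.64, 9.68 and 10.13 in untreated OIR. Every P5 saline array was above the normoxia arrays for Apln, yet the difference of 0.55 ± 0.35 did not pass (adjusted p = 0.365), and P5 saline stood -2.70 from untreated OIR (adjusted p = 0.000164).

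Adm, the vasodilator peptide adrenomedullin, followed the same order with 5.54, 5.38 and 5.35 in normoxia, 6.49, 6.27 and 5.87 in P5 saline and 8.53, 8.15 and 9.09 in untreated OIR. Its difference from normoxia was 0.78 ± 0.39 (adjusted p = 0.23) and from untreated OIR -2.38 ± 0.39 (adjusted p = 0.000702). Angpt2, which loosens pericytes from vessels, differed from normoxia by 0.21 ± 0.31 (adjusted p = 0.747) and from untreated OIR by -1.77 ± 0.31 (adjusted p = 0.00103). Vegfa, the main hypoxic growth factor, read 10.04, 9.85 and 9.63 in normoxia, 10.26, 10.31 and 10.32 in P5 saline and 10.99, 11.01 and 11.32 in untreated OIR. The 3 groups did not overlap for Vegfa, but the difference of 0.46 ± 0.18 from normoxia missed the threshold (adjusted p = 0.112) while that of -0.81 ± 0.18 from untreated OIR passed (adjusted p = 0.00581). With the lens covariate Vegfa did pass against normoxia (0.84, adjusted p = 0.0284). A second probe set of Vegfa, nearly as bright, differed from normoxia by -0.23, so the direction for Vegfa depends on the probe set.

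As a list, 2 of 17 tip cell and sprouting genes were higher than normoxia and none lower, with a median difference of 0.25. Against untreated OIR, 12 of the 17 were lower and none higher, with a median of -0.92. In untreated OIR itself 14 of 17 were above normoxia, with a median of 1.31. The 2 genes that passed against normoxia encode receptors. Cxcr4, the receptor for the guidance chemokine Cxcl12, read 8.17, 8.34 and 8.57 in normoxia and 9.29, 9.57 and 9.38 in P5 saline, with no overlap. It rose by 1.05 ± 0.20 (adjusted p = 0.00217), against a difference of 1.57 ± 0.20 in untreated OIR, and kept its call whichever array was left out and with the lens covariate. Aplnr, the apelin receptor, rose by 0.91 ± 0.26 (adjusted p = 0.033), with 9.79, 9.32 and 10.01 in normoxia and 10.34, 10.74 and 10.76 in P5 saline. The groups were separate for Aplnr, but its call was lost without P5 saline replicate 2 (0.84), P5 saline replicate 3 (0.83), normoxia replicate 1 (0.95) and normoxia replicate 2 (0.71), and with the lens covariate (0.38, adjusted p = 0.463). Cxcl12, the ligand of Cxcr4, was among the 12 genes with the largest falls in the whole comparison, at -1.06 ± 0.24 (adjusted p = 0.00909). It read 8.97, 9.02 and 8.76 in normoxia and 7.48, 8.06 and 8.03 in P5 saline, and its call was lost without P5 saline replicate 1 (-0.87) and kept with the lens covariate (-1.19). A dimmer second probe set of Cxcl12 differed by only -0.35, though the call was kept with probe sets averaged.

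**Figure D3:**
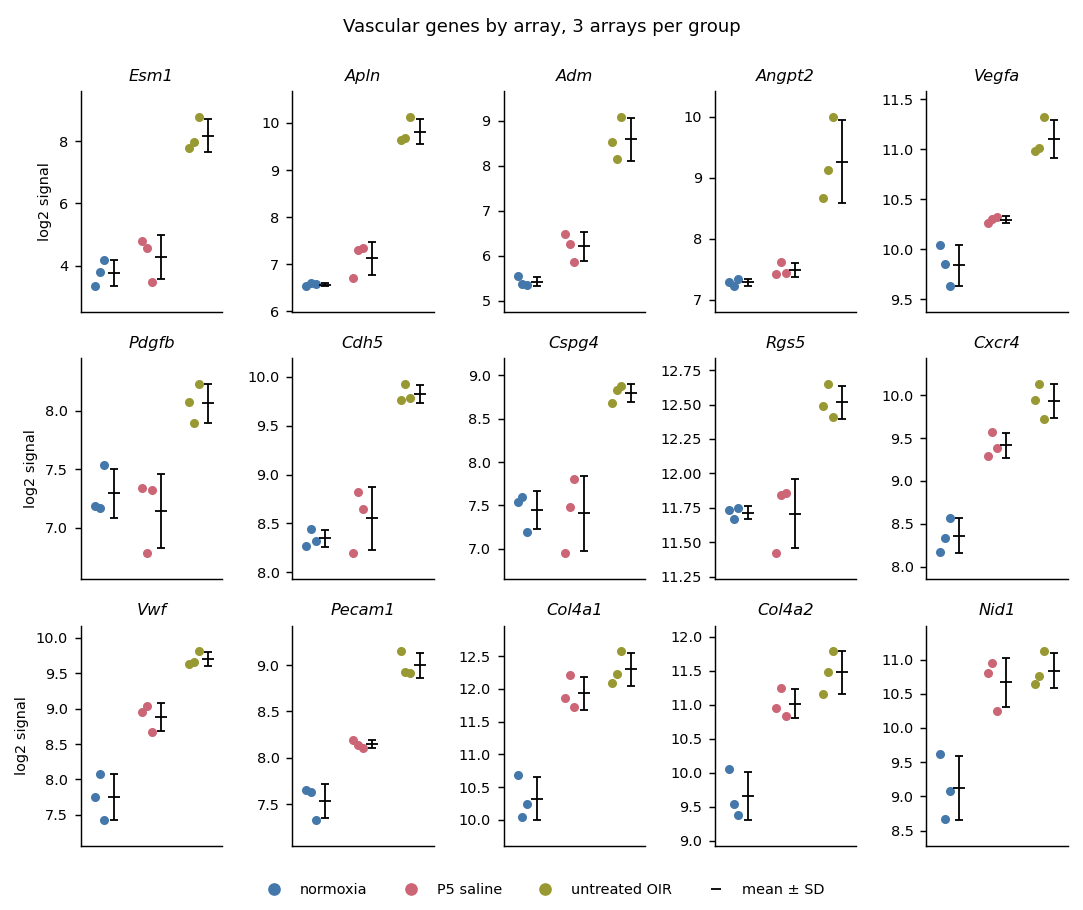
Log2 signal (y axes) of 15 vascular genes in the 3 normoxia, 3 P5 saline and 3 untreated OIR arrays (points), with the mean and SD of each group in black. Esm1, Apln, Adm, Angpt2, Pdgfb, Cdh5, Cspg4 and Rgs5 in P5 saline lie near normoxia and below untreated OIR, whereas Col4a1 and Nid1 lie near untreated OIR, with P5 saline means of 11.93 and 10.67.

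Genes of mural cells, which wrap capillaries, were mostly lower than in untreated OIR too. None of 19 passed against normoxia in limma, 3 having an unadjusted p below 0.05, and the median was 0.12, whereas 10 were lower than untreated OIR and none higher. Cspg4, the NG2 proteoglycan of pericytes, read 7.54, 7.60 and 7.19 in normoxia, 6.95, 7.48 and 7.80 in P5 saline and 8.68, 8.83 and 8.88 in untreated OIR. Its difference from normoxia was -0.04 ± 0.18 (95% interval -0.42 to 0.34) and from untreated OIR -1.39 ± 0.18 (adjusted p = 0.000171). Rgs5, a regulator of G protein signalling in pericytes, differed from normoxia by -0.01 ± 0.17 (95% interval -0.35 to 0.34) and from untreated OIR by -0.81 ± 0.17 (adjusted p = 0.00364). Other probe sets of Rgs5 differed from normoxia by 0.07, -0.11 and, on the dimmest, 0.66. The dimmest passed when limma was fitted to all probe sets (adjusted p = 0.0417). Pdgfrb, the receptor through which endothelial PDGF-B recruits pericytes, differed from normoxia by 0.21 ± 0.17 (adjusted p = 0.498), and its ligand gene Pdgfb by -0.15 ± 0.17 (adjusted p = 0.656). The contractile actin Acta2 was spread widely, at 9.16, 10.14 and 8.48 in P5 saline against 8.06, 7.92 and 8.24 in normoxia, and did not pass (adjusted p = 0.135). Mcam (CD146) came nearest to the threshold of the list, at 0.57 ± 0.19 (adjusted p = 0.0607).

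Among endothelial genes 4 of 28 were higher than normoxia and 1 lower, with a median of 0.13, while 10 were lower than untreated OIR. Vwf, the clotting factor stored in endothelial granules, took an intermediate place with 7.75, 8.08 and 7.42 in normoxia, 8.95, 9.04 and 8.67 in P5 saline and 9.64, 9.66 and 9.81 in untreated OIR. The 3 groups did not overlap for Vwf, and P5 saline differed from normoxia by 1.13 ± 0.21 (adjusted p = 0.00236) and from untreated OIR by -0.82 ± 0.21 (adjusted p = 0.0179). Pecam1, the adhesion molecule CD31, was intermediate too, at 7.65, 7.63 and 7.32, 8.19, 8.14 and 8.11 and 9.15, 8.92 and 8.92 in the same order of groups. It rose by 0.61 ± 0.17 over normoxia (adjusted p = 0.0271) and lay -0.85 from untreated OIR (adjusted p = 0.00327). The adhesion gene Icam2 rose by 0.63 ± 0.15 (adjusted p = 0.0137) and Clec14a, an endothelial lectin, by 0.62 ± 0.17 (adjusted p = 0.0278). Slco1a4, an organic anion carrier of barrier endothelium, fell from 8.46, 8.52 and 8.94 to 7.09, 7.93 and 7.86 (-1.02 ± 0.28, adjusted p = 0.0273).

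The endothelial junction gene Cdh5 (VE-cadherin) differed from normoxia by only 0.21 ± 0.19 (adjusted p = 0.573) but lay -1.27 from untreated OIR (adjusted p = 0.000458). Plvap, a marker of leaky fenestrated vessels, differed from normoxia by -0.02 ± 0.17 (95% interval -0.37 to 0.33). The call of Vwf was kept whichever array was left out, at 0.97 to 1.30. Other calls were lost without single arrays: Pecam1 without P5 saline replicate 1 (0.59), P5 saline replicate 2 (0.62) and normoxia replicate 3 (0.51), Icam2 without P5 saline replicate 1 (0.57) and normoxia replicate 1 (0.52), Clec14a without P5 saline replicate 2 (0.50), P5 saline replicate 3 (0.63), normoxia replicate 1 (0.50) and normoxia replicate 2 (0.58), and Slco1a4 without P5 saline replicate 1 (-0.75) and normoxia replicate 3 (-0.87). With the lens covariate none of the 28 endothelial genes passed, Vwf standing at 0.65 (adjusted p = 0.115) and Pecam1 at 0.25 (adjusted p = 0.452). Slco1a4 kept nearly its full difference there, at -0.99 (adjusted p = 0.121).

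Basement membrane genes held the vascular genes with the largest rises over normoxia. Of 28 matrix genes, 5 were higher than normoxia and none lower, with a median of 0.40 and 26 positive differences, and 9 were lower than untreated OIR. Col4a1 and Col4a2 encode the chains of the collagen IV network around vessels and in the lens capsule. Col4a1 read 10.69, 10.04 and 10.24 in normoxia, 11.86, 12.22 and 11.72 in P5 saline and 12.09, 12.23 and 12.58 in untreated OIR. All P5 saline arrays were above normoxia and overlapped untreated OIR, with a difference of 1.61 ± 0.24 from normoxia (3.05-fold, adjusted p = 0.000646) and of -0.37 ± 0.24 from untreated OIR (adjusted p = 0.367). Col4a2 rose by 1.36 ± 0.29 (adjusted p = 0.00578), from 10.05, 9.54 and 9.37 to 10.96, 11.25 and 10.83. Nid1, the nidogen that links collagen IV to laminin, rose by 1.54 ± 0.38 (adjusted p = 0.0138) and differed from untreated OIR by -0.17 ± 0.38 (adjusted p = 0.827).

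Hspg2, the heparan sulfate proteoglycan perlecan, rose by 0.82 ± 0.22 (adjusted p = 0.0227). Serpinh1, the collagen chaperone of the endoplasmic reticulum, rose by 0.72 ± 0.18 (adjusted p = 0.016) but remained -0.90 from untreated OIR (adjusted p = 0.00361). The small proteoglycan gene Bgn differed by 0.83 ± 0.27 on its brightest probe set without passing (adjusted p = 0.0592), though it passed with the lens covariate (1.34). Other probe sets of Bgn, almost as bright, differed by 1.27 and 1.31. Both passed when limma was fitted to all probe sets (adjusted p = 0.00605 and 0.0017). Outside the list, the growth factor receptor Pdgfra rose by 0.77 ± 0.15 (adjusted p = 0.00247), Igfbp7 by 0.74 ± 0.18 (adjusted p = 0.0119) and the endothelial BMP receptor Acvrl1 by 0.36 ± 0.11 (adjusted p = 0.0496). Each was the only call of its list, of 20 vascular ligand and receptor, 10 insulin-like growth factor and 17 TGF and BMP genes. Over all genes 3.91% were higher. Dimmer probe sets of Igfbp7 differed by 0.06 and 0.57, and with probe sets averaged its call was lost. Pdgfra marks the astrocytes on which retinal vessels grow, and Igfbp7 is a matrix protein of vessels. The collagen calls held whichever array was left out, Col4a1 at 1.47 to 1.79 and Col4a2 at 1.22 to 1.56. Calls were lost for Nid1 without P5 saline replicate 1 (1.48), P5 saline replicate 2 (1.40) and normoxia replicate 2 (1.32), for Hspg2 without P5 saline replicate 1 (0.68), P5 saline replicate 2 (0.82) and normoxia replicate 2 (0.63), for Serpinh1 without P5 saline replicate 2 (0.57), normoxia replicate 2 (0.64) and normoxia replicate 3 (0.66), for Igfbp7 without P5 saline replicate 2 (0.59) and normoxia replicate 3 (0.67), and for Acvrl1 without P5 saline replicate 2 (0.25), P5 saline replicate 3 (0.37), normoxia replicate 1 (0.27) and normoxia replicate 3 (0.37).

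Lens RNA moved with some of these genes: normoxia replicate 1 and P5 saline replicates 1 and 2 had the highest lens means and the highest Nid1 values of their groups. Nid1 read 9.61, 8.68 and 9.07 in normoxia and 10.80, 10.94 and 10.25 in P5 saline. With the lens mean as a covariate, Col4a1 still passed at 0.86 (adjusted p = 0.0399), whereas Col4a2 was at 0.41 (adjusted p = 0.351), Nid1 at 0.14 (adjusted p = 0.798), Hspg2 at 0.12 (adjusted p = 0.747) and Serpinh1 at 0.70 (adjusted p = 0.0931). Pdgfra (0.45), Igfbp7 (0.36) and Acvrl1 (0.40) did not pass with it either. Across the other groups injected at P5, mean Col4a1 was 11.39 with endothelial colony forming cells, 11.15 with both cell types and 12.11 with CD34+ cells, all above the normoxia mean of 10.32 ± 0.33 (SD, n = 3).

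Norrin and barrier signalling, which matures retinal vessels through beta-catenin, had 1 of 9 genes lower and none higher, with a median of -0.05. The passing gene was Ctnnb1, beta-catenin itself, at -0.29 ± 0.07 (adjusted p = 0.0113). The 2 dimmer probe sets of Ctnnb1 differed by 0.08 and 0.59, so its direction depends on the probe set, and the call was lost without P5 saline replicate 2 (-0.24), though kept with the lens covariate. Tspan12, a co-receptor for Norrin, read 7.43, 7.24 and 7.20 in normoxia and 6.28, 7.10 and 6.63 in P5 saline, and differed by -0.62 ± 0.21 without passing (adjusted p = 0.0695). Its difference from untreated OIR was -1.11 (adjusted p = 0.00222).

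HIF targets and glycolytic genes split. Of 33 measured members, 2 were higher than normoxia and 4 lower, with a median of -0.04, and 21 were lower than untreated OIR while 1 was higher. Hk2, the hexokinase that feeds aerobic glycolysis in photoreceptors, fell most. It read 11.35, 11.40 and 11.36 in normoxia, 10.53, 10.26 and 10.52 in P5 saline and 11.33, 11.16 and 11.45 in untreated OIR. The P5 saline arrays lay below all others, at -0.94 ± 0.14 from normoxia (1.91-fold lower, adjusted p = 0.000572) and -0.88 ± 0.14 from untreated OIR (adjusted p = 0.000495), and the call held without each array in turn and with the lens covariate (-0.64).

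Higd1a, a mitochondrial protein induced by hypoxia, fell from 11.90, 11.99 and 12.03 in normoxia to 11.40, 11.53 and 11.63 in P5 saline (-0.45 ± 0.10, adjusted p = 0.00578). The glycolytic kinase gene Pgk1 fell from 13.34, 13.42 and 13.27 to 12.95, 12.95 and 13.14 (-0.33 ± 0.09, adjusted p = 0.0203). Pgam1, the next enzyme of the pathway, fell from 13.39, 13.40 and 13.33 to 13.00, 13.03 and 13.17 (-0.31 ± 0.07, adjusted p = 0.0124). All P5 saline arrays lay below normoxia for these 3 genes. The 2 other probe sets of Higd1a, almost as bright, differed by 0.13 and -0.17, and with probe sets averaged its call was lost (-0.16). Stc2, the secreted hormone stanniocalcin 2, was raised instead and took an intermediate place, with 7.48, 7.32 and 7.13 in normoxia, 7.98, 8.57 and 8.09 in P5 saline and 9.73, 9.60 and 10.12 in untreated OIR. It rose by 0.91 ± 0.24 over normoxia (adjusted p = 0.0192) and lay -1.60 from untreated OIR (adjusted p = 0.000437). Mxi1, a repressor that opposes MYC, rose by 0.55 ± 0.13 (adjusted p = 0.00909), from 11.53, 11.29 and 11.20 to 11.76, 11.99 and 11.93, while a dimmer second probe set differed by 0.07. Calls were lost for Pgk1 without P5 saline replicate 1 (-0.30), P5 saline replicate 2 (-0.29) and normoxia replicate 2 (-0.29), for Pgam1 without P5 saline replicate 1 (-0.27) and P5 saline replicate 2 (-0.29) and for Stc2 without P5 saline replicate 2 (0.73) and normoxia replicate 3 (0.81). In the fit with the lens covariate Higd1a (-0.41), Pgk1 (-0.15) and Pgam1 (-0.25) did not pass, whereas Stc2 (1.32) and Mxi1 (0.76) did, and over the list 4 genes were higher and 1 lower.

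The 250 bases before the RefSeq start (GRCm38.p6, 5′ to 3′ on the gene's strand) are shown for 3 of the glycolytic genes that fell together and for Stc2, which rose, since HIF binds the core ACGTG or GCGTG in such regions. Capitals mark ACGTG or GCGTG on either strand.
Hk2, chr6:82774455-82774704, minus strand: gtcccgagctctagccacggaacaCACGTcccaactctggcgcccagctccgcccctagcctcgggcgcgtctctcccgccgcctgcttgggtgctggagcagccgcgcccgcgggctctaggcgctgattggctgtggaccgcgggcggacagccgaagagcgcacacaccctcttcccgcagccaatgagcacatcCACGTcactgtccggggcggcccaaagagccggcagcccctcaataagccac
Pgk1, chrX:106186850-106187099, plus strand: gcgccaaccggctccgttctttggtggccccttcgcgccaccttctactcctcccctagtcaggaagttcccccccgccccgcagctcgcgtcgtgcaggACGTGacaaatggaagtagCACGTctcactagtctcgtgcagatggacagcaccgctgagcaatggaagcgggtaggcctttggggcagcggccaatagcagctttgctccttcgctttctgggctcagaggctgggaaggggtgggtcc
Pgam1, chr19:41911621-41911870, plus strand: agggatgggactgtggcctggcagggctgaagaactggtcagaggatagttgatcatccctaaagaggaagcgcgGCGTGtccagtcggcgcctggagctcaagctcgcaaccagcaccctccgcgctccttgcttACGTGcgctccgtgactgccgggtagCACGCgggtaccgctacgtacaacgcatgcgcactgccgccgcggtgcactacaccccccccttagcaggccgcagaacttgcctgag
Stc2, chr11:31370062-31370311, minus strand: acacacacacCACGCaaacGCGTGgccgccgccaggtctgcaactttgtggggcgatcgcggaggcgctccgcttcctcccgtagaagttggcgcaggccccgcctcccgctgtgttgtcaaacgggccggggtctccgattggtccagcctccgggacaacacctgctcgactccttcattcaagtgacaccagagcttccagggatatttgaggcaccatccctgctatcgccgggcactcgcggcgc
Hk2 and Pgk1 each hold 2 copies of ACGTG, Pgam1 holds 1 of ACGTG and 2 of GCGTG, and Stc2 holds 2 of GCGTG. Of the 32851 windows of this length in the table, 38.6% hold at least 1 copy of either core and 16.7% hold 2 or more matches. Mxi1, which also rose, has 3 listed starts, and their windows hold 0, 1 and 1 copies of ACGTG. A match describes the letters alone.

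**Figure D4:**
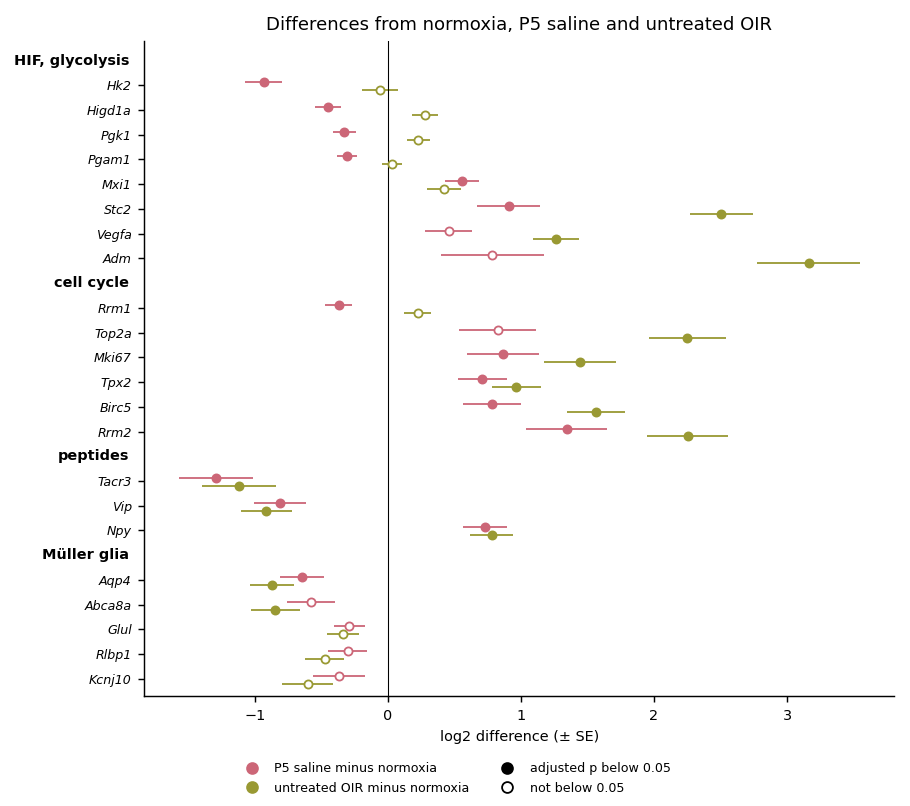
Log2 difference from normoxia (x axis, ± SE) of hypoxia, cell cycle, peptide and Müller glial genes in P5 saline and in untreated OIR, which share the 3 normoxia arrays; filled points passed an adjusted p of 0.05. Hk2 is at -0.94 in P5 saline and -0.06 in untreated OIR, Stc2 at 0.91 and 2.51, and Tacr3 at -1.30 and -1.12.

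Rods, the most abundant cells of the retina, showed small falls in a minority of their genes. Of 18 measured rod phototransduction genes 4 were lower than normoxia and none higher, with a median of -0.14, and rhodopsin was not analysed here. Slc24a1, the cation exchanger that extrudes calcium from rod outer segments, read 12.78, 12.89 and 12.80 in normoxia and 12.27, 12.25 and 12.50 in P5 saline. The groups were apart, and the difference was -0.48 ± 0.09 (1.39-fold lower, adjusted p = 0.00293). Pdc, phosducin, which binds transducin subunits, fell from 14.04, 14.03 and 14.00 to 13.57, 13.44 and 13.75 (-0.44 ± 0.09, adjusted p = 0.0053). The transducin genes themselves changed less: Gnat1 fell by 0.22 ± 0.07 (adjusted p = 0.0476) and Gnb1 fell by 0.27 ± 0.08 (adjusted p = 0.0338). Other probe sets of Gnb1 differed by -0.07 and 0.11, and averaging ended its call (-0.07).

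Over the 18 rod genes 12 differences were negative and 6 positive, and 5 had an unadjusted p below 0.05 in limma, all lower. Some rod genes stayed within narrow bounds of normoxia. Sag differed by 0.07 ± 0.08 (95% interval -0.09 to 0.23), Rcvrn by 0.03 ± 0.08 (-0.14 to 0.19) and Pde6b, a subunit of the rod phosphodiesterase, by -0.08 ± 0.09 (-0.27 to 0.10). Among 15 outer segment and cilium genes 1 was lower and none higher, with a median of -0.12. That gene was Rp1, which organises outer segment discs along the axoneme. It read 13.02, 12.85 and 13.35 in normoxia, 12.44, 12.20 and 12.52 in P5 saline and 12.84, 12.78 and 12.78 in untreated OIR. P5 saline lay below both groups for Rp1, with differences of -0.68 ± 0.12 against normoxia (adjusted p = 0.00174) and -0.41 ± 0.12 against untreated OIR (adjusted p = 0.0376). The disc rim gene Prph2 differed by -0.34 ± 0.15 and did not pass (adjusted p = 0.171).

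Of 11 photoreceptor transcription factors 1 was lower, with a median of -0.08. Crx, the homeobox factor that drives rod and cone genes, read 12.54, 12.63 and 12.64 in normoxia and 11.97, 12.33 and 12.43 in P5 saline, a difference of -0.36 ± 0.11 (adjusted p = 0.0374), while a dimmer probe set differed by 0.33 in the opposite direction. Nrl, which commits photoreceptors to the rod fate, differed by -0.17 ± 0.07 (adjusted p = 0.15). The calls of Slc24a1, Pdc and Rp1 held whichever array was left out, at -0.56 to -0.43, -0.52 to -0.36 and -0.80 to -0.54. Those of Gnat1 were lost without P5 saline replicate 1 (-0.21), P5 saline replicate 2 (-0.18), normoxia replicate 1 (-0.19), normoxia replicate 2 (-0.23) and normoxia replicate 3 (-0.22), of Gnb1 without P5 saline replicate 1 (-0.24), P5 saline replicate 2 (-0.21), normoxia replicate 2 (-0.22) and normoxia replicate 3 (-0.29) and of Crx without P5 saline replicate 1 (-0.22), P5 saline replicate 2 (-0.40), normoxia replicate 1 (-0.39), normoxia replicate 2 (-0.35) and normoxia replicate 3 (-0.34). Once the lens covariate was added, Rp1 passed at -0.66 (adjusted p = 0.0298), but no phototransduction gene did, Slc24a1 being at -0.28 (adjusted p = 0.127) and Pdc at -0.32 (adjusted p = 0.108), and Crx was at -0.12.

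The 250 bases before the start of Crx (RefSeq, GRCm38.p6, chr7:15879956-15880205, minus strand, 5′ to 3′) are shown because CRX protein binds TAATCC and is known to act on its own gene. Capitals mark TAATCC on either strand.
Crx: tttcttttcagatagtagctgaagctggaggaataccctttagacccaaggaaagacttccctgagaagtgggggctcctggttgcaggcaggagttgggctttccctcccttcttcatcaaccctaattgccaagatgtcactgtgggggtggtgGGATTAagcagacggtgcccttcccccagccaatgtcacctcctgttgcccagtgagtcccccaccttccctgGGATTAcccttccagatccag
The window holds 2 matches; 0.295% of the 32851 windows hold 2 or more and 6.25% hold at least 1. The windows of Slc24a1 and Pdc, whose calls did not depend on 1 array, hold none.

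No cone gene of 9 passed in limma, 3 having an unadjusted p below 0.05, all lower, and the median was -0.11. The M opsin Opn1mw read 11.77, 11.82 and 11.66 in normoxia and 11.20, 11.55 and 11.49 in P5 saline. Its arrays did not overlap, but the difference of -0.33 ± 0.13 did not pass (adjusted p = 0.114). The S opsin Opn1sw differed by 0.21 ± 0.16 (adjusted p = 0.477) and cone arrestin Arr3 by -0.12 ± 0.15 (adjusted p = 0.698). The potassium channel subunit Kcne2 came closest, at -0.35 ± 0.11 (adjusted p = 0.0511).

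Few genes of inner retinal neurons passed. Of 14 bipolar genes 1 was lower and 1 higher: Car8, a carbonic anhydrase-related protein, fell by 0.69 ± 0.16 (adjusted p = 0.00979), and Lhx4, a homeobox gene, rose by 0.42 ± 0.12 (adjusted p = 0.0357). A second probe set of Car8 differed by 0.06. The call of Car8 was lost without P5 saline replicate 1 (-0.49), and that of Lhx4 without P5 saline replicate 1 (0.45), P5 saline replicate 2 (0.43), P5 saline replicate 3 (0.37), normoxia replicate 2 (0.38) and normoxia replicate 3 (0.37). Trpm1, the cation channel of ON bipolar cells, reached 6.93, 8.45 and 6.76 in P5 saline against 7.27, 6.41 and 6.93 in normoxia and did not pass (adjusted p = 0.417). None of 13 amacrine and none of 12 ganglion cell genes passed in limma, 3 and 1 of them having an unadjusted p below 0.05, with medians of -0.12 and -0.17. The GABA enzyme Gad1 differed by -0.52 ± 0.22 (adjusted p = 0.14), and passed only with the lens covariate (-1.05), with which Car8 kept its call and Lhx4 (0.18) did not.

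Calb1, a calcium buffer and the one horizontal cell gene of 6 that passed, fell by 0.58 ± 0.14 (adjusted p = 0.0147), and lost its call without P5 saline replicate 1 (-0.49) and normoxia replicate 3 (-0.47) and with the lens covariate (-0.47). Of 21 synaptic genes Snap25, a fusion protein of synaptic vesicles, was lower at -0.42 ± 0.07 (adjusted p = 0.0014), with 14.10, 14.06 and 14.03 in normoxia and 13.68, 13.50 and 13.75 in P5 saline. It kept its call without each array in turn and with the lens covariate (-0.39).

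Among 9 neuropeptide genes 2 were lower and 1 higher than normoxia. Tacr3, the neurokinin receptor of bipolar cells, read 9.13, 8.74 and 9.07 in normoxia, 7.49, 7.97 and 7.59 in P5 saline and 8.10, 8.01 and 7.47 in untreated OIR. It fell by 1.30 ± 0.28 (2.45-fold lower, adjusted p = 0.00591), with a difference of -0.18 ± 0.28 from untreated OIR (adjusted p = 0.748). A second probe set of Tacr3, nearly as bright, differed from normoxia by only -0.39, though the call was kept with probe sets averaged. Vip, a peptide of amacrine cells, fell by 0.81 ± 0.19 (adjusted p = 0.0115), against -0.91 ± 0.19 in untreated OIR. Npy, neuropeptide Y, rose by 0.73 ± 0.16 (adjusted p = 0.0076), against 0.78 ± 0.16 in untreated OIR. The call of Tacr3 held without each array, whereas Vip lost its own without P5 saline replicate 1 (-0.64) and normoxia replicate 3 (-0.71) and Npy without P5 saline replicate 2 (0.58). Tacr3 (-2.02) and Npy (0.78) also passed with the lens covariate and Vip (-0.88) did not.

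Müller glia, the radial glia of the retina, had 1 of 16 genes lower and none higher, with a median of -0.14. Aqp4, the water channel of their end feet, read 11.33, 11.05 and 11.35 in normoxia, 10.53, 10.68 and 10.57 in P5 saline and 10.63, 10.53 and 9.95 in untreated OIR. P5 saline and normoxia did not overlap, and Aqp4 fell by 0.65 ± 0.17 (adjusted p = 0.017), with 0.23 ± 0.17 separating P5 saline from untreated OIR (adjusted p = 0.425). Over the 16 genes 11 differences were negative and 5 positive. Among the negative ones that did not pass, Abca8a, a lipid transporter, was at -0.58 ± 0.18 (adjusted p = 0.0523) and glutamine synthetase Glul at -0.29 ± 0.12 (0.139). The retinaldehyde carrier Rlbp1 was at -0.30 ± 0.15 (0.225) and the potassium channel Kcnj10 at -0.37 ± 0.19 (0.268). Aqp4 lost its call without P5 saline replicate 1 (-0.62), normoxia replicate 1 (-0.60) and normoxia replicate 3 (-0.59), and with the lens covariate (-0.56, adjusted p = 0.128). In that fit 2 of the 16 Müller genes were higher than normoxia and none lower.

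**Figure D5:**
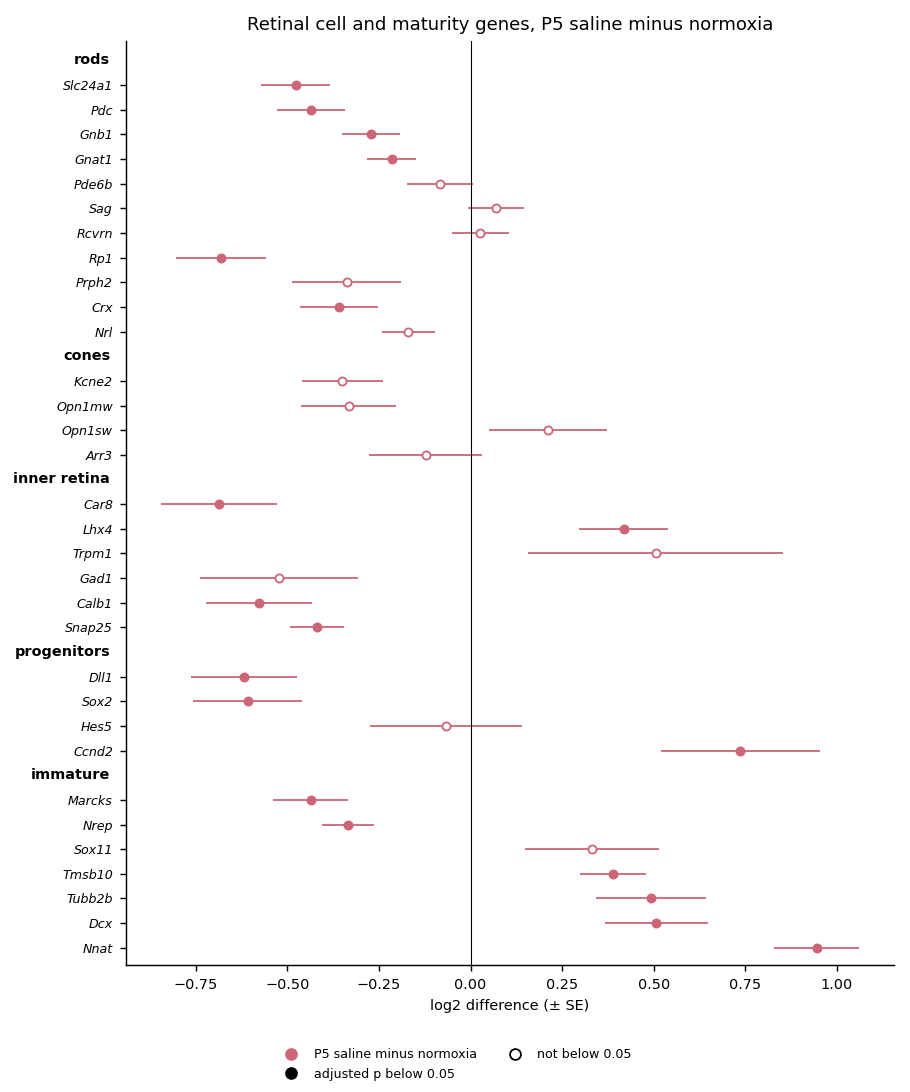
Log2 difference of P5 saline from normoxia (x axis, ± SE) for rod, cone, inner retinal, progenitor and immature neuron genes; filled points passed an adjusted p of 0.05. Rod genes lie between -0.68 (Rp1) and 0.07 (Sag), and Nnat has the largest positive difference, 0.95.

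Genes of immature neurons changed in both directions. Of 23 measured, 4 were higher and 2 lower than normoxia, with a median of 0.19. Nnat, neuronatin, an imprinted gene high in newborn neurons, stood out with 11.35, 11.28 and 11.22 in normoxia, 12.07, 12.47 and 12.15 in P5 saline and 12.03, 11.99 and 11.89 in untreated OIR. Every P5 saline array was above every array of the other groups, and Nnat rose by 0.95 ± 0.12 (1.93-fold, adjusted p = 8.79e-05), against 0.69 ± 0.12 in untreated OIR. Dcx, the microtubule protein of migrating neurons, rose by 0.51 ± 0.14 (adjusted p = 0.0272), from 8.17, 8.29 and 8.28 to 8.52, 8.79 and 8.95, and the tubulin gene Tubb2b by 0.49 ± 0.15 (adjusted p = 0.0441). The actin-binding Tmsb10 rose by 0.39 ± 0.09 (adjusted p = 0.00996) on its brightest probe set, while its other 4 differed by between -0.47 and 0.24. Marcks, a membrane and actin linker, fell by 0.44 ± 0.10 (adjusted p = 0.00996) and Nrep, a neuronal regeneration protein, fell by 0.33 ± 0.07 (adjusted p = 0.00577). Sox11, a factor of newborn neurons, differed by 0.33 ± 0.18 (adjusted p = 0.293).

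Nnat kept its call whichever array was left out, at 0.82 to 1.03, and with the lens covariate, at 0.72. Nrep also kept it without each array. Other calls were lost for Dcx without P5 saline replicate 2 (0.49), P5 saline replicate 3 (0.41), normoxia replicate 1 (0.47), normoxia replicate 2 (0.53) and normoxia replicate 3 (0.53), for Tubb2b without P5 saline replicate 1 (0.54), P5 saline replicate 2 (0.41), P5 saline replicate 3 (0.53), normoxia replicate 1 (0.50) and normoxia replicate 2 (0.38), for Tmsb10 without P5 saline replicate 2 (0.32) and for Marcks without P5 saline replicate 1 (-0.31). Marcks also passed with the lens covariate (-0.56), and Dcx (0.58), Tubb2b (0.15), Tmsb10 (0.36) and Nrep (-0.29) did not.

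Progenitor genes gave no common direction, with 1 of 19 higher, 2 lower and a median of -0.08. Dll1, a Notch ligand, fell by 0.62 ± 0.15 (adjusted p = 0.0104), against -0.59 ± 0.15 in untreated OIR, and Sox2, which Müller glia also express, fell by 0.61 ± 0.15 (adjusted p = 0.013). Ccnd2, a cyclin of the first growth phase, rose by 0.74 ± 0.22 (adjusted p = 0.0357), against 0.99 ± 0.22 in untreated OIR. Hes5, a Notch target of progenitors, differed by -0.07 ± 0.21 (95% interval -0.50 to 0.37). Calls were lost for Dll1 without P5 saline replicate 1 (-0.44), for Sox2 without P5 saline replicate 1 (-0.41) and normoxia replicate 3 (-0.50) and for Ccnd2 without P5 saline replicate 1 (0.76), P5 saline replicate 2 (0.58), normoxia replicate 2 (0.61) and normoxia replicate 3 (0.64), and none of these 3 passed with the lens covariate, at -0.58, -0.54 and 0.73.

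Cell cycle genes were raised in part. Of 32 measured, 4 were higher and 1 lower than normoxia, with a median of 0.17, and 10 were lower than untreated OIR and none higher. Rrm2, the ribonucleotide reductase subunit made in S phase, read 5.77, 5.45 and 5.79 in normoxia, 7.01, 7.09 and 6.93 in P5 saline and 8.03, 7.86 and 7.88 in untreated OIR. It rose by 1.34 ± 0.30 (2.54-fold, adjusted p = 0.00813) and differed from untreated OIR by -0.91 ± 0.30 (adjusted p = 0.0633), and it passed in all 17 alternative fits run. The proliferation antigen Mki67 rose by 0.87 ± 0.27 (adjusted p = 0.0485), the spindle gene Tpx2 by 0.71 ± 0.18 (adjusted p = 0.0178) and Birc5 (survivin) by 0.78 ± 0.22 (adjusted p = 0.0277). For Mki67 the groups overlapped, with 7.62, 6.84 and 7.98 in normoxia and 9.18, 7.91 and 7.95 in P5 saline. Top2a, the topoisomerase of dividing cells, differed by 0.83 ± 0.29 without passing (adjusted p = 0.0779) and lay -1.43 from untreated OIR (adjusted p = 0.00356). Rrm1, the partner of Rrm2, fell by 0.37 ± 0.10 (adjusted p = 0.0244) on its brighter probe set, while the other differed by 0.25, and with both averaged the call was lost (-0.06). The other probe set of Tpx2 differed by -0.08, and averaging ended its call too (0.31). Calls were lost for Mki67 without P5 saline replicate 1 (0.45), normoxia replicate 1 (0.94) and normoxia replicate 2 (0.55), for Tpx2 without P5 saline replicate 1 (0.53) and normoxia replicate 3 (0.62), for Birc5 without P5 saline replicate 1 (0.54), normoxia replicate 1 (0.78) and normoxia replicate 2 (0.67) and for Rrm1 without P5 saline replicate 1 (-0.32), P5 saline replicate 2 (-0.38), normoxia replicate 2 (-0.29) and normoxia replicate 3 (-0.37). In the lens covariate fit Mki67 (0.70), Tpx2 (0.65) and Rrm1 (-0.23) did not pass and Birc5 (1.04) did. The cell cycle list mean was 7.55 in P5 saline replicate 1 and 7.32 and 7.34 in replicates 2 and 3, against 7.14 to 7.31 in normoxia.

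Glial stress genes were uneven among the P5 saline retinas. Of 22 gliosis genes 1 passed, with 20 positive differences and a median of 0.56. Gfap, the intermediate filament of reactive Müller glia, read 10.78, 7.96 and 8.24 in P5 saline replicates 1, 2 and 3, against 7.82, 8.23 and 7.75 in normoxia and 9.17, 9.55 and 11.27 in untreated OIR. Replicate 1 alone was high, and the group difference of 1.06 ± 0.72 did not pass (adjusted p = 0.41). Edn2 and Fgf2, chosen after their values were seen, were also by far the highest in P5 saline replicate 1. The endothelin gene Edn2, known to be induced in injured photoreceptors, read 10.66, 4.99 and 5.61 in P5 saline and 5.25, 5.56 and 5.95 in normoxia, and the survival factor Fgf2 read 11.30, 8.56 and 8.89 and 8.16, 7.87 and 8.05, all P5 saline arrays being higher for Fgf2 but not for Edn2. Lcn2, an iron-carrier binding protein of acute stress, read 8.59, 7.58 and 7.34 in P5 saline and 6.49, 6.51 and 6.37 in normoxia, all P5 saline arrays being higher, but did not pass (1.38 ± 1.13, adjusted p = 0.513).

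S100a6, a calcium-binding protein, was the gliosis gene that passed, from 7.97, 7.65 and 7.88 in normoxia to 11.47, 10.50 and 8.93 in P5 saline. It rose by 2.47 ± 0.58 (adjusted p = 0.0108) and stood -0.06 ± 0.58 from untreated OIR (adjusted p = 0.966); its call was lost without P5 saline replicate 1 (1.88) and with the lens covariate (1.92). Hmox1, heme oxygenase, read 12.66, 10.27 and 7.95 in P5 saline and 6.59, 6.77 and 7.09 in normoxia. All P5 saline arrays were above normoxia, but they spanned a wide range. Hmox1 rose by 3.47 ± 0.99 (adjusted p = 0.0304), the largest rise outside the lens list, and lost its call without P5 saline replicate 1 (2.29), P5 saline replicate 2 (3.49), normoxia replicate 1 (3.36), normoxia replicate 2 (3.45) and normoxia replicate 3 (3.61) and with the lens covariate (0.82). The antioxidant gene Gstm1 rose by 0.80 ± 0.22 (adjusted p = 0.0247) and lost its call without P5 saline replicate 2 (0.57) and normoxia replicate 3 (0.65) and with the lens covariate (0.36). None of 24 microglial genes passed in limma, 7 having an unadjusted p below 0.05, with a median of 0.59 and 23 positive differences. With the lens covariate 8 of the 24 were higher. These 8 calls cannot be read as a lens correction, since the slope also drew on a CD34+ retina with low lens and high microglial signal. Cx3cr1, the fractalkine receptor of microglia, differed by 0.38 ± 0.23 (adjusted p = 0.359). The microglial list mean was 8.03, 7.47 and 7.37 in P5 saline and 6.96, 6.93 and 7.10 in normoxia.

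Of 15 genes of the unfolded protein and integrated stress response 3 were lower and none higher. The list as a whole was not lower, with a median of 0.07, 8 positive and 7 negative differences. The chaperone partner Dnajb9 fell from 10.48, 10.60 and 10.75 to 9.48, 10.16 and 9.93 (-0.75 ± 0.12, adjusted p = 0.000667). Hsp90b1, a chaperone of the endoplasmic reticulum, fell by 0.44 ± 0.10 (adjusted p = 0.008) and Xbp1, a factor of the response, fell by 0.47 ± 0.13 (adjusted p = 0.0272). Dnajb9 kept its call without each array and with the lens covariate (-0.66), while Hsp90b1 lost it without P5 saline replicate 1 (-0.31) and Xbp1 without P5 saline replicate 1 (-0.32), normoxia replicate 1 (-0.49), normoxia replicate 2 (-0.48) and normoxia replicate 3 (-0.46), neither passing with the lens covariate.

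Lens genes had by far the largest differences. Of 20 measured, 16 were higher and none lower, with a median of 4.78. Crygd, a gamma crystallin of lens fibre cells, read 7.19, 5.85 and 6.31 in normoxia and 14.17, 13.90 and 11.92 in P5 saline, a difference of 6.88 ± 1.10 (adjusted p = 0.000694). Crygf differed by 6.65 ± 1.13, Crygb by 6.63 ± 1.15, Cryga by 6.14 ± 1.06 and Cryba4 by 6.11 ± 1.31, with adjusted p of 0.0012, 0.00136, 0.00132 and 0.00578. Gamma crystallins share much sequence, so their probe sets may read each other's RNA. Cryaa, the alpha A chaperone of the lens, read 10.79, 6.42 and 6.95 in normoxia, where replicate 1 stood apart, and 14.01, 13.87 and 11.57 in P5 saline (5.10 ± 1.31, adjusted p = 0.0176), and lost its call without P5 saline replicate 1 (4.67), P5 saline replicate 2 (4.73), normoxia replicate 2 (4.28) and normoxia replicate 3 (4.54). Crygs rose by 5.95 ± 1.33 (adjusted p = 0.00782). Cryab, which retinal glia also make, rose by 1.91 ± 0.42 (adjusted p = 0.00688). In the other groups the lens list mean was 7.31 to 13.16 in the 9 arrays of pups given cells at P5 and 6.20 to 7.23 in the 12 arrays of pups injected at P12.

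Pigment cell genes had another order of arrays. Of 8 melanin synthesis genes 3 were higher, with a median of 0.95: tyrosinase Tyr by 1.56 ± 0.35 (adjusted p = 0.00853), Dct by 1.82 ± 0.43 (adjusted p = 0.0104) and Pmel by 1.47 ± 0.46 (adjusted p = 0.0475). Dct read 9.43, 11.50 and 10.36 in P5 saline and 8.51, 8.50 and 8.82 in normoxia, so that replicate 2 was the highest. Without P5 saline replicate 2 (1.29) the call of Dct was lost, as was that of Tyr without P5 saline replicate 2 (1.10) and that of Pmel without P5 saline replicate 2 (0.67), P5 saline replicate 3 (1.65), normoxia replicate 1 (1.53), normoxia replicate 2 (1.29) and normoxia replicate 3 (1.60). None of these 3 passed with the lens covariate, at 1.57 for Tyr, 1.80 for Dct and 0.83 for Pmel. All 8 pigment epithelium genes had positive differences with a median of 0.98, none passed in limma though 5 had an unadjusted p below 0.05, and 6 were higher than untreated OIR. Rpe65, the isomerase of the visual cycle, read 7.08, 7.72 and 7.97 in normoxia and 7.96, 10.23 and 10.01 in P5 saline (adjusted p = 0.145), Lrat, which esterifies retinol, differed by 1.70 ± 0.54 (adjusted p = 0.0513, with a call under the lens covariate), and the opsin Rgr by 1.53 ± 0.61 (adjusted p = 0.125). Of 10 cornea genes 2 rose, both of epithelial junctions: Perp by 1.27 ± 0.28 (adjusted p = 0.00619) and the desmosome gene Dsp by 1.34 ± 0.34 (adjusted p = 0.0166), the latter losing its call without P5 saline replicate 1 (1.30) and normoxia replicate 1 (1.24); neither passed with the lens covariate. The cornea list mean was 6.06 to 6.23 in P5 saline and 5.72 to 6.05 in normoxia, and none of 11 eye muscle, 5 blood cell or 10 neutrophil genes passed in limma, with 1, 0 and 1 at an unadjusted p below 0.05.

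The 12 largest rises outside the lens list were led by Hmox1 and Nupr1. Nupr1, a stress-induced chromatin protein, read 9.66, 8.68 and 7.64 in normoxia and 12.69, 12.75 and 9.97 in P5 saline and rose by 3.14 ± 0.66 (adjusted p = 0.00512). B3gnt5, a glycolipid enzyme, rose by 2.50 ± 0.62 (adjusted p = 0.0145), the calcium-binding S100a4 by 2.43 ± 0.54 (adjusted p = 0.00696), the surface glycoprotein Cd24a by 2.42 ± 0.74 (adjusted p = 0.0444), the Wnt agonist Rspo1 by 2.33 ± 0.60 (adjusted p = 0.0178), Tent5c, a poly(A) polymerase, by 2.23 ± 0.62 (adjusted p = 0.0271), the actin-severing Gsn by 2.07 ± 0.57 (adjusted p = 0.0266) and the Wnt inhibitor Sfrp1 by 1.83 ± 0.41 (adjusted p = 0.00779). In each of these 7 genes P5 saline replicate 3, which had the lowest lens mean of its group, was the lowest: Cd24a read 13.45, 13.03 and 10.63 and Rspo1 6.95, 7.49 and 5.75. All P5 saline arrays were above normoxia in them, which the rule for picking the 12 required. None of the 7 passed with the lens covariate, and the sign turned for Cd24a (-0.54) and Tent5c (-0.22). Nupr1 was at 1.70 with the covariate and did not pass. The lysozyme gene Lyz1, whose probes may also read its close paralog Lyz2, rose by 2.42 ± 0.76 (adjusted p = 0.0494) and was highest in replicate 1 (10.10, 7.76 and 8.02, against 6.33, 6.29 and 5.98 in normoxia). Apart from Nupr1, these genes lost their calls without single arrays: B3gnt5 without P5 saline replicate 1 (1.97) and P5 saline replicate 2 (2.18), S100a4 without P5 saline replicate 1 (1.76), Cd24a without P5 saline replicate 1 (1.88), P5 saline replicate 2 (2.09), normoxia replicate 1 (2.53), normoxia replicate 2 (2.20) and normoxia replicate 3 (2.54), Rspo1 without P5 saline replicate 1 (2.22), P5 saline replicate 2 (1.95) and normoxia replicate 2 (2.25), Tent5c without P5 saline replicate 1 (1.63), P5 saline replicate 2 (2.01), normoxia replicate 2 (2.17) and normoxia replicate 3 (2.21), Gsn without P5 saline replicate 1 (1.55), P5 saline replicate 2 (1.88), normoxia replicate 1 (2.12), normoxia replicate 2 (1.95) and normoxia replicate 3 (2.14), Sfrp1 without P5 saline replicate 1 (1.52) and P5 saline replicate 2 (1.54) and Lyz1 without P5 saline replicate 1 (1.69), P5 saline replicate 2 (2.86), P5 saline replicate 3 (2.73), normoxia replicate 1 (2.49), normoxia replicate 2 (2.47) and normoxia replicate 3 (2.31).

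The 12 largest falls were smaller and more even between arrays. Tmlhe, an enzyme of carnitine synthesis, fell from 10.81, 10.86 and 11.23 to 9.21, 10.03 and 9.77 (-1.30 ± 0.24, adjusted p = 0.00237). Sp4, a zinc finger factor of neurons and photoreceptors, fell from 11.16, 11.00 and 11.53 to 9.87, 10.31 and 10.14 (-1.12 ± 0.14, adjusted p = 7.75e-05), and was lower than untreated OIR as well (-0.74 ± 0.14, adjusted p = 0.00166). A second probe set of Sp4, nearly as bright, differed by 0.19, and with probe sets averaged Sp4 differed by -0.46 and still passed. Dr1, a repressor of the basal transcription machinery, fell by 0.99 ± 0.11 (adjusted p = 3.33e-05), while a dimmer probe set differed by 0.40. Cav2, a caveolin, fell from 9.11, 9.38 and 9.24 to 7.56, 8.55 and 8.57 (-1.02 ± 0.20, adjusted p = 0.00278), and the ciliary gene Cys1 fell by 0.96 ± 0.17 (adjusted p = 0.00149), a dimmer probe set differing by 0.07. The neuronal contactin Cntn4 fell by 0.96 ± 0.24 (adjusted p = 0.0141), the matrix proteoglycan Spock3 fell by 1.01 ± 0.25 (adjusted p = 0.013), Ccdc85a fell by 1.03 ± 0.27 (adjusted p = 0.0178) and the lymphocyte adaptor Sh2d1a fell by 1.15 ± 0.35 (adjusted p = 0.042). Tacr3, Cxcl12 and Slco1a4 complete the 12.

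In all of these the P5 saline arrays lay below the normoxia arrays, and replicate 1 was the lowest in Cav2, Tmlhe and Sp4. The calls of Tmlhe, Sp4, Dr1, Cav2 and Cys1 held whichever array was left out. They were lost for Cntn4 without P5 saline replicate 1 (-0.71) and normoxia replicate 3 (-0.87), Spock3 without P5 saline replicate 1 (-0.68) and normoxia replicate 3 (-0.87), Ccdc85a without P5 saline replicate 1 (-0.64) and normoxia replicate 3 (-0.94) and Sh2d1a without P5 saline replicate 1 (-0.80), P5 saline replicate 3 (-1.24), normoxia replicate 1 (-1.20), normoxia replicate 2 (-1.02) and normoxia replicate 3 (-1.22). Sp4 (-1.09), Tmlhe (-1.65), Dr1 (-0.85), Cys1 (-1.15), Cntn4 and Spock3 also passed with the lens covariate, and Cav2 (-0.59), Ccdc85a (-1.20) and Sh2d1a (-1.53) did not.

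In the remaining lists few genes passed. Of 9 myelin, 11 sterol synthesis, 11 clock, 17 immediate early and 14 p53 and apoptosis genes, 1 each was lower and none higher. Over all genes 4.2% were lower, so 1 call says little about such a list. Of 17 respiratory chain genes 2 were higher and 2 lower. The myelin gene Mbp was lower (-0.47 ± 0.14, adjusted p = 0.0416) on its brightest probe set, whereas its 7 others had differences of up to 1.39 in the positive direction, and it lost its call without P5 saline replicate 1 (-0.38), P5 saline replicate 2 (-0.50), normoxia replicate 1 (-0.48) and normoxia replicate 2 (-0.39). Idi1 of sterol synthesis fell by 0.89 ± 0.19 (adjusted p = 0.0055) and the clock repressor Nr1d2 fell by 0.55 ± 0.10 (adjusted p = 0.00158), both with calls that held without each array. A second probe set of Nr1d2 differed by 0.09, and with probe sets averaged its call was lost (-0.23). Dusp1, an early response phosphatase, fell by 0.84 ± 0.24 (adjusted p = 0.0324) and Trp53inp1, a p53 target, fell by 0.40 ± 0.11 (adjusted p = 0.0266). Dusp1 lost its call without P5 saline replicate 1 (-0.70), P5 saline replicate 3 (-0.84), normoxia replicate 2 (-0.67) and normoxia replicate 3 (-0.70), and Trp53inp1 without P5 saline replicate 1 (-0.28), P5 saline replicate 2 (-0.42), normoxia replicate 2 (-0.41) and normoxia replicate 3 (-0.31). In the respiratory chain Cox6a1 (0.41 ± 0.08) and Ndufb8 (0.32 ± 0.08) rose while Sdha (-0.34 ± 0.07) and Atp5a1 (-0.25 ± 0.06) fell, with adjusted p of 0.0025, 0.0117, 0.00579 and 0.0137; Ndufb8 lost its call without normoxia replicate 2 (0.28) and Atp5a1 without P5 saline replicate 2 (-0.19). Other probe sets of Trp53inp1 and Atp5a1 differed by 0.28 and by -0.14 and 0.14, and with probe sets averaged the calls of Trp53inp1 (-0.06), Atp5a1 (-0.08) and Sdha (-0.20) were lost. Of the genes of these remaining lists, Idi1, Nr1d2 and Cox6a1 kept their calls with the lens covariate. Dusp1 (-0.98, adjusted p = 0.0753) and Sdha (-0.30, adjusted p = 0.0751) missed the threshold with it at differences of about the same size, and Ndufb8 was at 0.26, Atp5a1 at -0.17, Mbp at -0.21 and Trp53inp1 at -0.13. None of 20 interferon and antigen presentation, 11 complement or 8 heat shock genes passed in limma, with 1, 0 and 4 at an unadjusted p below 0.05.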

How the data were processed

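The authors deposited a table of normalized log2 values, 22690 probe sets by 30 arrays. The submitters' processing notes name Partek, and the normalization method is not given in the sources used here. Per the labels' protocols, 100 ng of total RNA from 1 retina was amplified and labelled with biotin. Probe sets were named through GEO's platform annotation with symbols updated to RefSeq: 20380 had 1 symbol, 691 several and 1555 none, and 64 were controls. Where a gene had several probe sets, the brightest on average was used, giving 12393 genes. limma 3.58.1 (R 4.3.3) fitted the 10 group means to all 30 arrays together, leaving 20 residual degrees of freedom. Tests were two-sided, with Benjamini-Hochberg adjustment over all genes and a threshold of 0.05. Nothing says whether pups shared a litter, so p-values measure the spread between these retinas.

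The genes named were the 12 largest rises and falls with separate groups outside the lens list, up to 6 lens genes, up to 6 members of each of 43 lists with the smallest p, and a fixed set; 93 of 746 list genes had no probe set of their own. Lists and members were chosen with earlier results of these data known. Sequences came from RefSeq. Alternatives are given at the end. The number of arrays limits the precision.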

Additional observations from a re-analysis of the deposited data

How the results depend on the processing

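The count of 1004 genes between P5 saline and normoxia became 2041 with all probe sets tested, 4 with only the 6 arrays, 313 with a 1.5-fold minimum and 1554 with the hybridisation controls as a covariate. Leaving out 1 array gave 549 to 970, and 613 without normoxia replicate 3, the array with the highest 3′ minus 5′ signals of the 2 groups. It stayed within 1.5 times with quantile normalization (1322), median centring (1306), averaged probe sets (738), dim genes left out (1265), trend and robust settings (1123), array weights estimated gene by gene (1388) and the lens covariate (687). With the replicate block it was 1049; Gnat1 and Mki67 lost their calls with this block, but the numbers were not taken to pair the samples, as same-numbered arrays had correlations of -0.15, 0.21 and -0.26 between their deviations from the group means. The count between P5 saline and untreated OIR (1077) became 1907 with all probe sets, 118 with the 6 arrays, 2019 with array weights, 459 with the 1.5-fold minimum, 172 with the lens covariate and 2753 with the hybridisation control covariate, and 489 to 1045 without 1 array. Untreated OIR against normoxia (565) became 935 with all probe sets and 348 with the 6 arrays, and 242 to 615 without 1 array. Counts of list members called in either direction without 1 array ran from 8 to 18 for lens, 2 to 5 for basement membrane, 2 to 4 for endothelial, 1 to 5 for cell cycle, 2 to 5 for rod phototransduction, 3 to 6 for HIF and glycolysis, and 0 to 5 for gliosis and for melanin synthesis. With the lens covariate the photoreceptor factor, horizontal cell and immediate early lists each had 1 gene higher and none lower, in place of 1 lower and none higher. Averaging probe sets turned the sign of Ctnnb1 (0.12), Tmsb10 (-0.013) and Mbp (0.55), and the lens covariate that of Cd24a (-0.54) and Tent5c (-0.22). The cause of these shifts was not tested. Of the 97 named genes with a call, 93 lost it with the 6 arrays and 32 with averaged probe sets, among them Dr1, Mxi1, Stc2, Crx, Car8, Aqp4, Serpinh1 and Hspg2, and 62 of the 89 outside the lens list lost it with the lens covariate. Dim genes near the array background, such as Esm1 in normoxia, are read with compressed differences.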

Other observations

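Gene families picked by symbol after the values were seen gave small, even differences. Some of their members also belong to lists above, such as Ndufb8 (respiratory chain) and Psmb8 (interferon and antigen presentation). Of 47 cytosolic ribosomal protein genes 19 were higher in P5 saline than in normoxia and none lower, with a median of 0.24, against 3.91% of all genes higher. Their mean log2 level was 11.60, 11.74 and 11.63 in P5 saline and 11.45, 11.46 and 11.44 in normoxia, without overlap. Of 74 mitochondrial ribosomal protein genes 13 were higher and 1 lower (median 0.21), of 33 complex I subunit genes 8 were higher and 1 lower (median 0.17), and of 39 proteasome subunit genes 6 were higher and none lower (median 0.19). The hnRNP proteins, which bind nascent RNA, went the other way, with 5 of 18 lower, none higher and a median of -0.15, while none of 9 SR splicing factors passed. The families were chosen for how they moved, so these counts are a description.

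Xist, the RNA that coats the inactive X chromosome of female cells, read 4.69, 12.17 and 12.12 in normoxia replicates 1, 2 and 3 and 5.70, 12.14 and 4.97 in P5 saline, so the groups held different numbers of arrays with high Xist. The part of this in the results above was not tested.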
